A study of Mus musculus with 8 samples.

Results

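Hmga1, Hmga2, Lin28a, Lin28b, Igf2bp1, Igf2bp2 and Igf2bp3 are regulators of growth that are used mainly before birth, and they were followed here through 2 experiments on the embryonic mouse trachea. They are 7 of the 23478 genes counted in each experiment, taken by symbol from both count tables. They were chosen with the differences between mutant and control libraries known, so their levels and fold changes are given as a description and without a test. All 7 rows were present in both tables. In the fits across all genes, 7 of the 7 passed the filter on low counts in the sorted cells and 6 of the 7 in the whole tracheas, where Lin28a did not.

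All samples came from mouse embryos at E13.5. In the sorted-cell experiment, the mutants were Bmp4flox/flox, Foxg1Cre+, γSMAeGFP embryos (2 libraries) and the controls were Bmp4flox/flox, γSMAeGFP embryos (3 libraries). Cells positive for EPCAM or for the GFP reporter of smooth muscle gamma-actin were removed by flow cytometry, and the labels call the remaining cells chondroblasts, the precursors of cartilage. In the whole-trachea experiment, the mutant was a Wls flox/flox, ShhCre+ trachea (1 library) and the controls were Wls flox/flox tracheas (2 libraries). Bmp4 is a secreted growth factor, and Wls is the sorting receptor that cells need to secrete Wnt proteins. ShhCre is active in the airway epithelium, and Foxg1Cre in the developing foregut among other tissues; the labels do not say which of the sorted cells had lost Bmp4. Neither control group carries Cre, so an effect of Cre itself cannot be told apart from that of the deletion. No label states whether replicate libraries are from different embryos or litters, so spreads and p-values describe these libraries and may be technical.

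Hmga1 and Hmga2 are chromatin proteins that bend AT-rich DNA and are abundant in dividing embryonic cells. Lin28a and Lin28b bind RNA and block the maturation of let-7 microRNAs, and Igf2bp1, Igf2bp2 and Igf2bp3 bind messenger RNAs and affect their stability, transport and translation. Mature let-7 in turn represses Hmga2, the Lin28 genes and Igf2bp genes through their 3′ untranslated regions (3′ UTRs), a circuit known from studies of developmental timing. Mature let-7 was not measured in these libraries.

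The let-7 seed and its matches in these genes are shown because let-7 is known to repress several of the 7 genes. The mature sequences are from RefSeq (GRCm38.p6), written 5′ to 3′ with the seed, bases 2 to 8, in capitals. Of 11 mature mouse names of the family, 10 have the seed GAGGUAG and 1, let-7j, has GAGGUAU. The 5 printed are the best known member, the member whose hairpin row is described below, one with a different first base, the exception, and miR-98, which carries the seed under another name.
mmu-let-7a-5p: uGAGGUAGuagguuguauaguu
mmu-let-7g-5p: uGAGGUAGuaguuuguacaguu
mmu-let-7d-5p: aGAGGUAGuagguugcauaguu
mmu-let-7j: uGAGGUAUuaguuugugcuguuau
mmu-miR-98-5p: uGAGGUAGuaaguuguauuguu

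The letters that pair with the common seed are CTACCTC. They were searched on the transcript strand in the longest annotated 3′ UTR of each gene (GENCODE M21, GRCm38). All 7 genes held at least 1 match, 17 in all. Of 19155 genes with an annotated 3′ UTR, 9.3% held a match and 0.157% held 3 or more. The median UTR of these genes was 996 bases, and the share with 3 or more was not taken at matched length. Hmga2, with 4 matches in 3014 bases, Lin28b, with 4 in 4445 bases, and Igf2bp1, with 4 in 6337 bases, were among the genes with 3 or more. Lin28a held 2 matches, and Hmga1, Igf2bp2 and Igf2bp3 held 1 each. Long UTRs hold a match more often, and among UTRs at least as long as that of the named gene the share with a match was 25.2% for Hmga2, 33.8% for Lin28b, 45.3% for Igf2bp1, 23.8% for Lin28a, 20.6% for Igf2bp3, 19.1% for Igf2bp2 and 16.3% for Hmga1. A match is a description of the letters, not a measured site.

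The lines give the 4 matches of Hmga2 in order from the stop codon and the first match of each other gene, on the transcript strand, with the match in capitals, 15 bases before it and 1 after it.
Hmga2 match 1: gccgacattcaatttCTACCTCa
Hmga2 match 2: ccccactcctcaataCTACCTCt
Hmga2 match 3: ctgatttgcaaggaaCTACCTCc
Hmga2 match 4: aatcaaaacacactaCTACCTCt
Hmga1 match 1: tcctctgttcacaaaCTACCTCt
Lin28a match 1: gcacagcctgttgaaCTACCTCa
Lin28b match 1: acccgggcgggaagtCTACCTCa
Igf2bp1 match 1: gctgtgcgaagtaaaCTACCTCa
Igf2bp2 match 1: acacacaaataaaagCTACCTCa
Igf2bp3 match 1: tgcatttttactcaaCTACCTCa

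Across all 17 matches of the 7 genes, 9 were followed by an A, the base that lies opposite the first base of the microRNA. The printed windows of Hmga2, in the same order, are chr10:120364224-120364246, chr10:120362987-120363009, chr10:120362549-120362571 and chr10:120361691-120361713 on the minus strand. Those of the other genes are chr17:27563277-27563299 on the plus strand for Hmga1 and, on the minus strand, chr4:134005189-134005211 for Lin28a, chr10:45381022-45381044 for Lin28b, chr11:95961778-95961800 for Igf2bp1, chr16:22059473-22059495 for Igf2bp2 and chr6:49086787-49086809 for Igf2bp3. All lie in the annotated 3′ UTR of the gene.

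**Figure D1:**
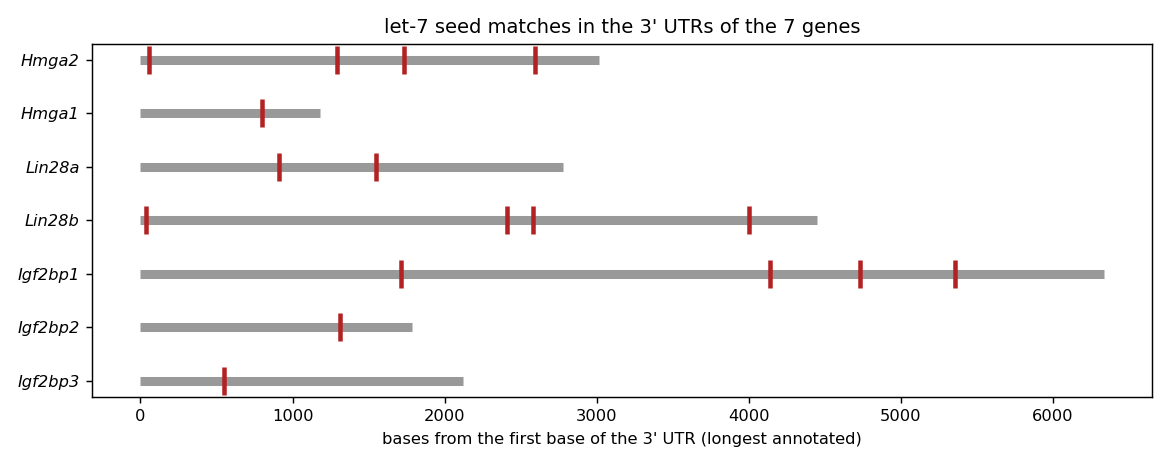
Map of let-7 seed matches (red ticks) along the longest annotated 3′ UTR (grey bars) of each gene, with the distance in bases from the first base of the UTR on the horizontal axis. Hmga2, Lin28b and Igf2bp1 each carry 4 matches, and the first match of Lin28b and of Hmga2 lies near the stop codon, at bases 36 and 58.

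The libraries held 12964287 and 15462780 counts for the Bmp4 mutants, against 48876948 to 55492747 in their controls, and 24596836 counts in the Wls mutant, against 27237573 and 31399982 in its controls. The Bmp4 mutant libraries stood apart: only 919 and 955 genes had no count in them, against 5573 to 6080 genes in the deeper controls. Smell and pheromone receptor genes (1456 rows), which tracheal cells are not known to use, summed to 2460 and 2200 CPM (counts scaled to a common library size) in the mutants, against 10.9 to 14.8 CPM in the controls. The 4966 genes with at most 2 counts over the 3 controls, called silent here, held 15.5 and 14.3 counts per kilobase of exon in the mutants, a background from which the counts of a low gene cannot be told apart. This background was uneven: over the 3305 silent genes of at least 1 kb, the range from the 5th to the 95th percentile was 0 to 56.3 and 0 to 53.3 counts per kb. For the mutants, the mean background rate over silent genes was therefore also subtracted. For lists and genes well above it, the outcome after subtraction is given as well. Receptor genes held a lower rate, 6.21 and 6.65 counts per kb in the mutants. Background shares of mutant counts given below use the rate over silent genes and would be smaller at the receptor rate. No fit used the receptor rate for the mutants. Bmp4 itself measured 24.1 and 32.2 CPM in the Bmp4 mutants, against 124, 99.2 and 121 CPM in their controls (log2 fold change -2.03 ± 0.20 SE, edgeR adjusted p = 0.0033; -1.65 and 0.0268 after subtraction). Wls measured 65.8 CPM in the Wls mutant, against 153 and 146 CPM in its controls (-1.19 ± 0.18, edgeR adjusted p = 2.23e-07).

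In control libraries the 7 genes differed widely in level. Per kilobase of exon, Hmga2 was the highest, with 102 ± 15.2 CPM per kb in the sorted controls (SD, n = 3) and 107 ± 6.41 in the trachea controls (SD, n = 2). Igf2bp2 followed with 60.4 ± 5.46 in sorted and 64.3 ± 1.18 in trachea controls, Igf2bp3 with 39.3 ± 2.72 and 33.6 ± 1.51, and Igf2bp1 with 22.2 ± 1.4 and 18.8 ± 2.93. Lin28b lay far under these at 1.12 ± 0.551 and 1.07 ± 0.133 CPM per kb. Hmga1, at 0.264 ± 0.267 and 0.413 ± 0.0873, and Lin28a, at 0.0482 ± 0.0237 and 0.071 ± 0.025, were the lowest. The order was the same in both tables, which were made with different kits and are set side by side without a test. Within each table the lowest control of a gene lay above the highest control of the next gene down. The margins were thin in the sorted controls for Lin28b over Hmga1 (0.571 over 0.57 CPM per kb) and for Hmga1 over Lin28a (0.0782 over 0.0755). The values of Hmga1 are uncertain, since the sources used here do not say how reads that fit more than 1 place in the genome were counted.

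Hmga2 was the member with the largest difference in CPM between Bmp4 mutants and controls, and the largest log2 difference among the 4 members well above the background. It measured 26.1 and 50.4 CPM in the Bmp4 mutants, against 419, 322 and 424 CPM in their controls. Both mutants lay far under all 3 controls, and the mutant mean was 9.86% of the control mean. The log2 fold change was -3.34 ± 0.33 (SE), and -3.02 ± 0.34 after background subtraction, which took 16.5% and 6.1% of the mutants' Hmga2 counts. Without mutant 1 the value was -2.96 and without mutant 2 it was -3.89. In bulk RNA, fewer cells that use a gene and less RNA per cell cannot be told apart, here and for every value below.

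Hmga2 was also lower in the Wls mutant, at 270 CPM against 392 and 426 CPM in the trachea controls. The mutant lay under both controls at 65.9% of their mean (log2 fold change -0.60 ± 0.20), but 37.6% of all tested genes had their mutant under both controls. Hmga2-ps1, a processed copy of Hmga2 with its own row, held 6.42% and 14% as many counts as Hmga2 in the Bmp4 mutants and 1.96% to 2.5% in their controls, and 1.54% in the Wls mutant against 1.62% and 1.88% in its controls. The row itself measured 1.68 and 7.08 CPM in the Bmp4 mutants, against 8.98, 8.05 and 8.33 CPM in their controls.

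As a sum, cartilage markers were low in the same libraries as Hmga2. The 11 cartilage markers measured summed to 593 and 1590 CPM in the Bmp4 mutants, against 5230, 3220 and 2580 CPM in their controls, and to 665 CPM in the Wls mutant, against 1790 and 1540 CPM in its controls. Of these, 5 fell and 2 rose in the Bmp4 comparison and 7 of 10 tested fell in the Wls comparison (edgeR). Over all genes edgeR called 15.6% lower and 39.3% higher in the Bmp4 comparison, and 33.3% lower among genes well above the background. In the Wls comparison it called 2.39% of all genes lower. After background subtraction edgeR called 0 of the 7 fitted, with 5 lower at an unadjusted p under 0.05 (median -1.55). Over all genes, 2403 of 9836 had an unadjusted p under 0.05 after subtraction, in either direction. DESeq2 was not run on subtracted counts. Sox9, the regulator of cartilage identity, fell in both, with a log2 fold change of -1.99 (adjusted p = 0.0207; -1.55 and 0.163 after subtraction) in the Bmp4 mutants and -1.28 (adjusted p = 3.42e-08) in the Wls mutant. The 2 that rose, Matn1 and Comp, had at most 0.166 CPM in the sorted controls, so their mutant values of 2.83 to 4.53 CPM lie in the reach of the background. Acan (log2 fold change 0.415) and Hapln1 (0.62) also had positive values in the Bmp4 comparison, without a call. The 8 smooth muscle markers summed to 1620 and 268 CPM in the Bmp4 mutants, against 119, 132 and 158 CPM, and to 2710 CPM in the Wls mutant, against 1950 and 1690 CPM. Red cell genes took 108000 CPM of Bmp4 mutant 1 and 1090 CPM of mutant 2, against 28.9, 7640 and 7300 CPM in their controls. No smooth muscle marker was at 0 in any library. Markers of airway epithelium (10 genes) summed to 108 and 73.2 CPM in the Bmp4 mutants, against 35.7, 33.9 and 23.9 CPM, and to 1060 CPM in the Wls mutant, against 758 and 662 CPM. Fibroblast and perichondrium markers (8 genes) summed to 12700 and 15600 CPM in the Bmp4 mutants, against 7210, 9760 and 6580 CPM. Of these 8, edgeR called 4 higher as deposited and 2 after subtraction, beside 39.3% and 2.09% of all genes tested. The same markers summed to 10400 CPM in the Wls mutant, against 13000 and 10200 CPM. Endothelial markers (4 genes) summed to 173 and 154 CPM in the Bmp4 mutants, against 20.2, 76.4 and 53.3 CPM, and to 207 CPM in the Wls mutant, against 260 and 324 CPM. Neural markers (6 genes) summed to 599 and 732 CPM and leukocyte markers (3 genes) to 126 and 116 CPM in the Bmp4 mutants, against 294 to 476 CPM and 54.8 to 60.2 CPM in their controls. The part of these cell mixtures in the Hmga2 difference was not tested. Over the 5 sorted libraries and 11127 genes, the genes whose centred log2 CPM ran closest to that of Hmga2 were Msx2, a homeobox factor induced by BMP signals (root mean square difference 0.26), 2610035D17Rik (0.39) and Col2a1, the main cartilage collagen (0.51).

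Hmga1 had 0 and 4 counts in the Bmp4 mutants, against 62, 14 and 8 counts in their controls. The 0 counts of mutant 1 allow a level of up to 3 counts, or 0.231 CPM on the raw library total, without TMM scaling. The mean background rate would give 33 and 30.3 counts in the mutants, more than were seen. The controls ranged from 0.166 to 1.21 CPM, so the groups overlap and no fold change is given. In the Wls mutant it had 21 counts, against 27 and 24 counts in the controls.

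**Figure D2:**
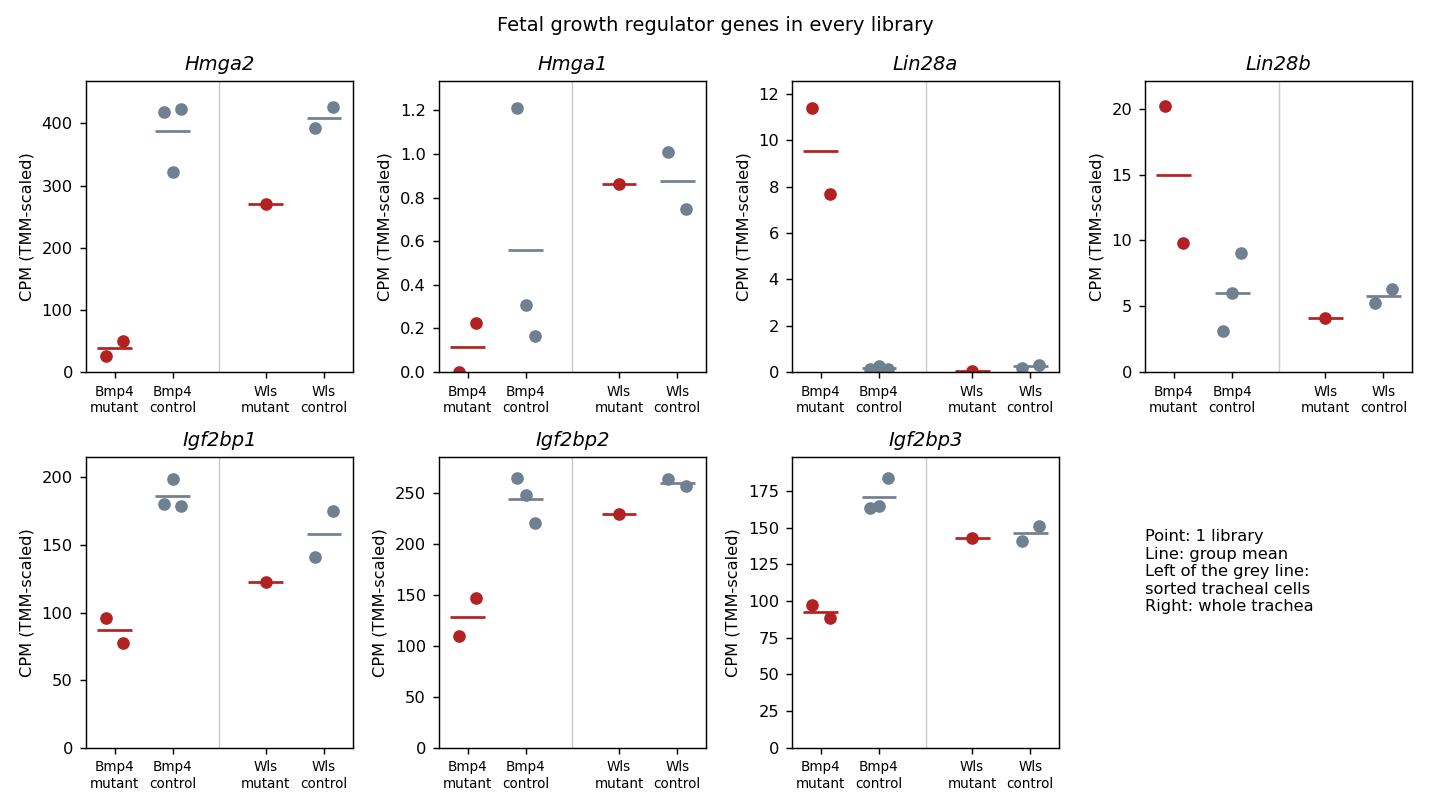
TMM-scaled CPM of each gene (vertical axis, from 0) in every library, with mutants in red and controls in blue-grey; points are libraries and lines are group means. Hmga2 sits at 26.1 and 50.4 CPM in the Bmp4 mutants and at 322 to 424 CPM in their controls, Igf2bp1 to Igf2bp3 are lower in both Bmp4 mutants, and Lin28a and Lin28b are higher there.

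Lin28a and Lin28b went the other way in the sorted cells as deposited. Lin28a had 156 and 136 counts in the Bmp4 mutants, against 6, 12 and 6 counts in the deeper controls, or 11.4 and 7.7 CPM against 0.117, 0.265 and 0.125 CPM (log2 fold change 5.80 ± 0.65). Both mutants lay above every control, in a comparison where 39.3% of all tested genes and 1043 of 1055 tested receptor genes were called higher. The share of all genes with both mutants above every control was not counted. At 44.5 and 38.8 counts per kb, however, Lin28a was above 90.4% and 89% of the silent genes of those libraries, within the range that genes unused in the controls reached. In the whole tracheas it had 1 count in the Wls mutant, against 5 and 10 counts, too few for the fit.

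Lin28b measured 20.2 and 9.8 CPM in the Bmp4 mutants, against 3.09, 5.98 and 9.04 CPM in their controls (log2 fold change 1.31 ± 0.53). Mutant 2 lay just above the highest control, and without mutant 1 the value was 0.67. Its 51.1 and 32 counts per kb were above 93.5% and 83.9% of the silent genes. In the Wls mutant it measured 4.14 CPM, against 5.27 and 6.28 CPM (-0.48 ± 0.33), the opposite direction from the sorted cells. The mean background rate equals 34.9% and 36.7% of the Lin28a counts and 30.4% and 44.5% of the Lin28b counts in the Bmp4 mutants. Neither gene was high enough above it to be fitted after subtraction. With the rate removed and no fit, Lin28a was at 10.4 and 6.14 CPM in the mutants, against 0.101 to 0.241 CPM in the controls. Lin28b was then at 19.7 and 6.85 CPM, against 2.85, 5.67 and 8.63 CPM, so mutant 2 lay inside the range of its controls. The removed rate is a mean, and the background was uneven. The closest profiles to Lin28b over the 5 sorted libraries were those of Gsdmd, a pore-forming protein of inflammation (root mean square difference 0.16), Abca3, a lipid transporter (0.17), and Psd4, an exchange factor for small Arf proteins (0.17). These profiles used counts without subtraction, and each of these genes was higher in both mutants than in every control. The part of the background in this likeness was not tested.

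**Figure D3:**
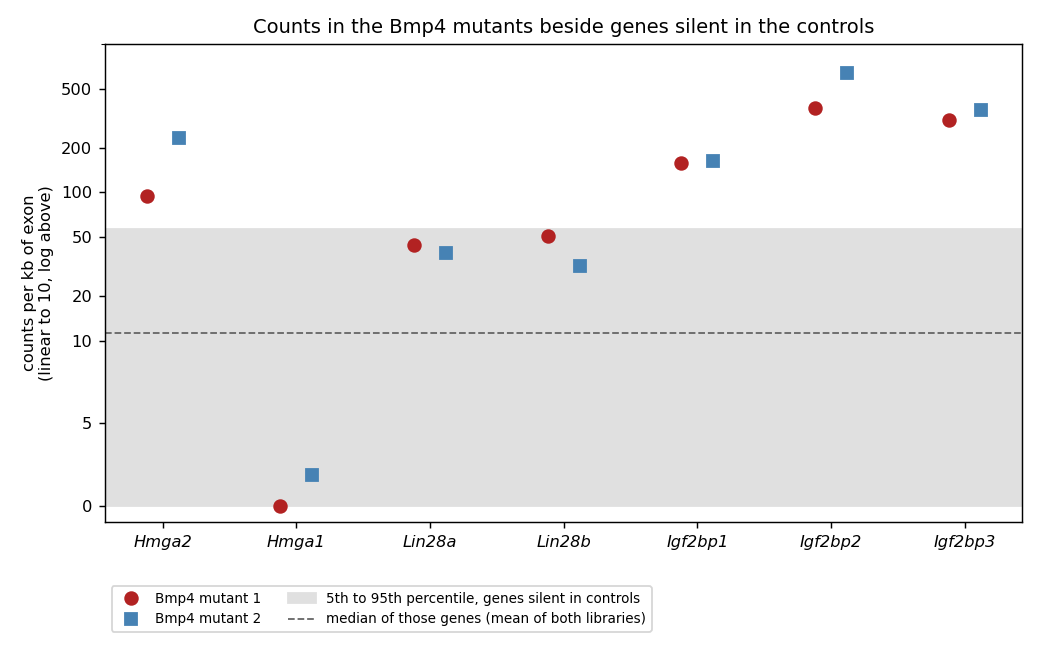
Counts per kilobase of exon of each gene in both Bmp4 mutants (vertical axis, linear to 10 and logarithmic above), beside the range from the 5th to the 95th percentile of genes silent in the controls (grey band) and their median (dashed line). Hmga2 and the Igf2bp genes lie above the band, while Lin28a, Lin28b and Hmga1 lie inside it.

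The Igf2bp genes were all lower in the Bmp4 mutants, by less than Hmga2. Igf2bp1, the member best known for binding H19, Actb and Myc messages, measured 96.3 and 77.5 CPM in the mutants, against 180, 199 and 179 CPM in the controls (log2 fold change -1.10 ± 0.16). Igf2bp2, which is also used in adult muscle and fat, measured 110 and 147 CPM, against 264, 248 and 220 CPM (-0.93 ± 0.19). Igf2bp3 measured 97.3 and 88.1 CPM, against 163, 165 and 184 CPM (-0.88 ± 0.15). For each of the 3 genes both mutants lay under all controls, as they did for 25.6% of all genes tested. That share covers genes at every level. It was not taken among genes well above the background, where edgeR called 33.3% lower.

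These differences have to be read against a shift of well expressed genes. The median log2 fold change over all genes tested was 0.53, lifted by genes that only the background reaches, and that of genes well above the background was -0.38. After subtraction the values were -0.74 for Igf2bp1, -0.49 for Igf2bp2 and -0.45 for Igf2bp3, against a median of -0.011 over the genes fitted. The genes closest in profile to Igf2bp3 were Arid5b, a chromatin factor (root mean square difference 0.012), Pygo1, a nuclear Wnt effector (0.019), and Aldoa, a glycolytic enzyme (0.025).

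In the Wls mutant, Igf2bp1 measured 123 CPM, against 141 and 175 CPM in the controls (-0.37 ± 0.18). Igf2bp2 measured 229 CPM, against 263 and 257 CPM (-0.18 ± 0.19). Igf2bp3 measured 143 CPM, inside the range of its controls at 141 and 151 CPM (-0.03 ± 0.18). Igf2bp1 and Igf2bp2 were thus slightly under both controls and Igf2bp3 was between them.

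**Figure D4:**
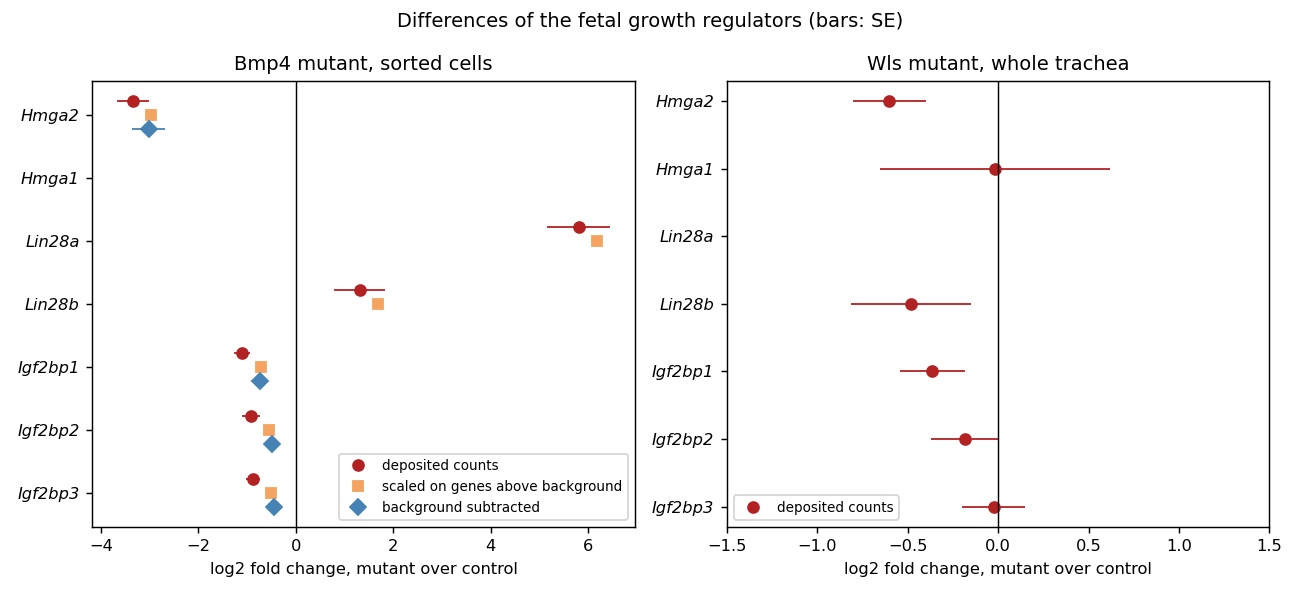
Log2 fold changes of the genes, mutant over control, with bars of 1 SE (none for the other scaling), in sorted cells (left, with the deposited counts, another scaling and background subtraction) and in whole tracheas (right). Hmga2 is at -3.34 and -3.02 in the sorted cells before and after subtraction and at -0.60 in the Wls mutant; Hmga1 in the sorted cells and Lin28a in the tracheas are not drawn.

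Of the 7 members, 4 were called lower and 1 higher in the sorted cells (edgeR, adjusted p under 0.05), beside 15.6% of all genes called lower and 39.3% called higher; among genes well above the background 33.3% were called lower. The members were chosen on this contrast, and nothing is read from the counts. After subtraction, 1 of the 4 members fitted, Hmga2, was called lower, beside 0.803% of genes called lower and 2.09% called higher. That call was lost without mutant 1 and without any 1 of the controls, with log2 fold changes from -3.56 to -2.62 over the 5 omissions. In the Wls comparison edgeR called 0 of the 6 members. At an unadjusted p under 0.05 there were 2, beside 2255 of all 15815 genes. DESeq2 called 1 member, Hmga2, lower, close to the 0.05 threshold, and 259 genes over the whole table. Over all genes edgeR called 2.39% lower and 1.88% higher there.

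Genes around these members were counted in lists of let-7 targets, processing factors and partners. Of 35 let-7 targets outside the members, 14 fell and 6 rose in the Bmp4 mutants, with a median log2 fold change of -0.52. The median was 0.53 over all genes and -0.38 over genes well above the background. In that comparison edgeR called 15.6% of all genes lower and 39.3% higher, and 33.3% of genes well above the background lower. The same shares and medians stand beside each list below. So do the genes at an unadjusted p under 0.05 in either direction. These were 13250 of 21665 in the Bmp4 comparison, 2403 of 9836 after subtraction and 2255 of 15815 in the Wls comparison. After subtraction 1 of 29 let-7 targets fell (median -0.20, against -0.011), beside 0.803% of genes called lower. Myc, a driver of growth, fell to 88.7 and 85.6 CPM in the Bmp4 mutants, against 189, 197 and 154 CPM in the controls (-1.04, edgeR adjusted p = 0.0033). Ccnd2, a G1 cyclin, fell to 357 and 517 CPM in the mutants, against 1150, 859 and 1060 CPM (-1.23, edgeR adjusted p = 0.00487). Neither passed after subtraction, with edgeR adjusted p = 0.101 for Myc and 0.0931 for Ccnd2.

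Let-7 targets that rose were low genes in the controls. Acvr1c, an activin-type receptor, measured 20.7 and 20.7 CPM in the Bmp4 mutants, against 0.0195, 0.132 and 0.145 CPM in the controls, and the background rate equals 50.2% and 35.9% of its mutant counts. Onecut2, a transcription factor, measured 29.3 and 24.9 CPM, against 1.17, 3.55 and 1.85 CPM, with a background share of 62.9% and 52.6%. Nr6a1, an orphan nuclear receptor of early embryos, measured 19.8 and 20.5 CPM, against 4, 4.94 and 4.24 CPM, with 34.8% and 23.9%. In the Wls mutant, 2 of the 35 let-7 targets fell and 0 rose by edgeR, with 4 higher at an unadjusted p under 0.05 and 0 higher by DESeq2. These were Irs2, an insulin receptor substrate, at 12.9 CPM against 21.5 and 27.6 CPM (-0.93, edgeR adjusted p = 0.00103), and Myc, at 37.2 CPM against 64.9 and 64 CPM (-0.79, edgeR adjusted p = 0.0015). DESeq2 called Myc but not Irs2. The median over the list was -0.0044, against -0.014 over all genes.

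Of 18 genes for let-7 and microRNA processing, 12 fell and 3 rose in the Bmp4 mutants (median -0.54), and 1 of 13 fell after subtraction. That 1 was Dicer1, which cuts microRNA precursors and is itself on the let-7 target list, at 37.8 and 40.3 CPM in the mutants, against 74.7, 66.6 and 70.1 CPM (-0.85, edgeR adjusted p = 0.00332; -0.77 and 0.0482 after subtraction). The enzymes that add uridines to precursor let-7 after Lin28 binds, Zcchc11 (-0.51, edgeR adjusted p = 0.0383) and Zcchc6 (-0.41, 0.0284), and Dis3l2 (-0.68, 0.0156), which degrades such tailed precursors, also fell in the deposited counts. After subtraction these were at -0.25, -0.10 and -0.36, with edgeR adjusted p = 0.399, 0.644 and 0.269. The RNA-binding factors Hnrnpa1 (-1.35) and Khsrp (-1.08) fell with them (edgeR adjusted p = 0.0033 for each), and at 0.0538 and 0.0696 neither passed after subtraction.

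Trim71, a let-7 target that acts early in development, rose to 4.67 and 4.02 CPM in the Bmp4 mutants, against 0.156, 0.706 and 1.08 CPM (2.74, edgeR adjusted p = 0.0269), but the mean background rate would give 226% and 187% of its mutant counts. In the Wls comparison edgeR called 0 of the 18 processing genes, with 1 higher and 2 lower at an unadjusted p under 0.05, and DESeq2 called 0. Of 12 rows for let-7 hairpin genes, 2 could be tested in the sorted cells and 1, Mirlet7g, rose, with 8 and 13 counts in the mutants against 4, 0 and 0 counts (edgeR adjusted p = 0.018). It was not called after subtraction (edgeR adjusted p = 0.0869) or by DESeq2. These are counts on the hairpin gene and not of mature let-7.

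Of 21 imprinted and fetal growth genes, 5 fell and 0 rose in the Bmp4 mutants by edgeR (median -0.26), with 1 higher at an unadjusted p under 0.05 and also by DESeq2, and 2 fell in the Wls mutant. Igf2, the growth factor of the fetus, measured 1120 and 1370 CPM in the Bmp4 mutants, against 2870, 2130 and 1450 CPM (-0.79, edgeR adjusted p = 0.0674), and 4990 CPM in the Wls mutant, against 7330 and 6600 CPM (-0.48). H19, the imprinted RNA beside Igf2, fell to 1520 and 2050 CPM in the Bmp4 mutants, against 5120, 3470 and 2590 CPM (-1.06, edgeR adjusted p = 0.0318; -0.58 and 0.288 after subtraction). Ezh2, a chromatin methyltransferase, fell in the Bmp4 mutants too (-1.16, edgeR adjusted p = 0.00346), as did Gnas (-0.78), Peg3 (-0.64) and Igf2r (-0.54), the receptor that clears Igf2. After subtraction edgeR called 0 of the 17 fitted genes of the list. At an unadjusted p under 0.05, 2 were higher and 2 lower, beside 2403 of all 9836 genes in either direction. Peg3 also fell in the Wls mutant, to 323 CPM against 439 and 683 CPM (-0.80, edgeR adjusted p = 0.0116), as did Zim1, to 23 CPM against 36.2 and 62.7 CPM (-1.10, 1.35e-05); DESeq2 called neither of them.

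Of 10 genes tied to Hmga2 action, 4 fell and 1 rose in the Bmp4 mutants (median -0.60), and 1 of 7 fell after subtraction (median -0.30). Snai1, a repressor of epithelial genes that Hmga2 is known to induce, fell to 21.3 and 40.4 CPM in the Bmp4 mutants, against 186, 120 and 121 CPM (-2.20 ± 0.34, edgeR adjusted p = 0.0033; -1.80 and 0.0485 after subtraction). Snai1 was the 1 of 9 tested genes of the list to fall in the Wls mutant, at 33.1 CPM against 90.2 and 90.8 CPM (-1.45 ± 0.19, edgeR adjusted p = 2.42e-10). Twist1, another mesenchymal regulator, measured 4.38 and 3.91 CPM in the Bmp4 mutants, against at least 7.35 CPM in each control (-1.26, edgeR adjusted p = 0.0425; 0.118 after subtraction). The cyclins Ccnb2 (-0.76) and Ccna2 (-0.62) also fell as deposited, and at -0.30 and -0.19 after subtraction neither passed (edgeR adjusted p = 0.209 and 0.596). The 1 that rose was Cdkn2a, a cell cycle inhibitor repressed by Hmga2 in stem cells, with 7 and 12 counts against 0, 0 and 2 counts, while the background rate equals 260% and 139% of the mutant counts. Plag1, a factor that activates Igf2 downstream of Hmga2, measured 9.93 and 16.3 CPM in the Bmp4 mutants, against 10.9, 15.6 and 14.8 CPM (-0.07).

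Other HMG genes were also lower in the Bmp4 mutants. Of 12 tested, 8 fell and 0 rose (edgeR, median -0.65; 0 rose at an unadjusted p under 0.05 or by DESeq2), among them Hmgb3 (-1.08, adjusted p = 0.0033), Hmgb1 (-1.06, 0.00864), Ssrp1 (-0.96, 0.00513) and Hmgn1 (-0.92, 0.00852). After subtraction edgeR called 0 of the 12 (median -0.30), with 4 lower at an unadjusted p under 0.05. In the Wls mutant 0 fell by edgeR, with 0 lower at an unadjusted p under 0.05 or by DESeq2, and 2 rose (median 0.34; 0 by DESeq2): Hmgn3, at 83.1 CPM against 55.2 and 45.6 CPM (0.72, edgeR adjusted p = 0.00222), and Hmgn5, at 46.2 CPM against 34.4 and 26.3 CPM (0.61, 0.0278).

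Of 18 partners of Igf2bp proteins and factors for m6A, the RNA mark that these proteins read, 10 fell and 1 rose in the Bmp4 mutants (median -0.57). In the Wls mutant edgeR called 0 of the 18, as did DESeq2, with 0 at an unadjusted p under 0.05. Ythdf1, another m6A reader, fell to 18.3 and 16.1 CPM, against 42.8, 40.5 and 50.8 CPM in the controls (-1.38, edgeR adjusted p = 0.0033; -1.18 and 0.0476 after subtraction), and it was the 1 of 17 that passed after subtraction. Ybx1 (-1.32) and Dhx9 (-0.84), which bind RNA beside Igf2bp1, fell in the deposited counts and had edgeR adjusted p = 0.0789 and 0.0921 after subtraction. Of 10 transcripts known to be bound by Igf2bp proteins, 5 fell and 3 rose in the Bmp4 mutants and 1, Myc, fell in the Wls mutant. Actb fell to 1200 and 1260 CPM in the Bmp4 mutants, against 2280, 3150 and 3140 CPM (-1.22, edgeR adjusted p = 0.00487). Cd44, a hyaluronan receptor, rose to 49.4 and 36.9 CPM, against 5.96, 7.46 and 16.6 CPM (2.11, edgeR adjusted p = 0.00603; 2.41 and 0.0576 after subtraction). After subtraction edgeR called 0 of the 8 fitted, with 1 higher and 2 lower at an unadjusted p under 0.05.

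The calls of Snai1, Dicer1 and Ythdf1 after subtraction were each lost without any 1 of the 5 libraries, mutants and controls alike. The edgeR adjusted p was then 0.0528 to 0.135 for Snai1, 0.061 to 0.162 for Dicer1 and 0.0729 to 0.148 for Ythdf1, and Snai1 was also lost at a higher background rate (0.0558).

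**Figure D5:**
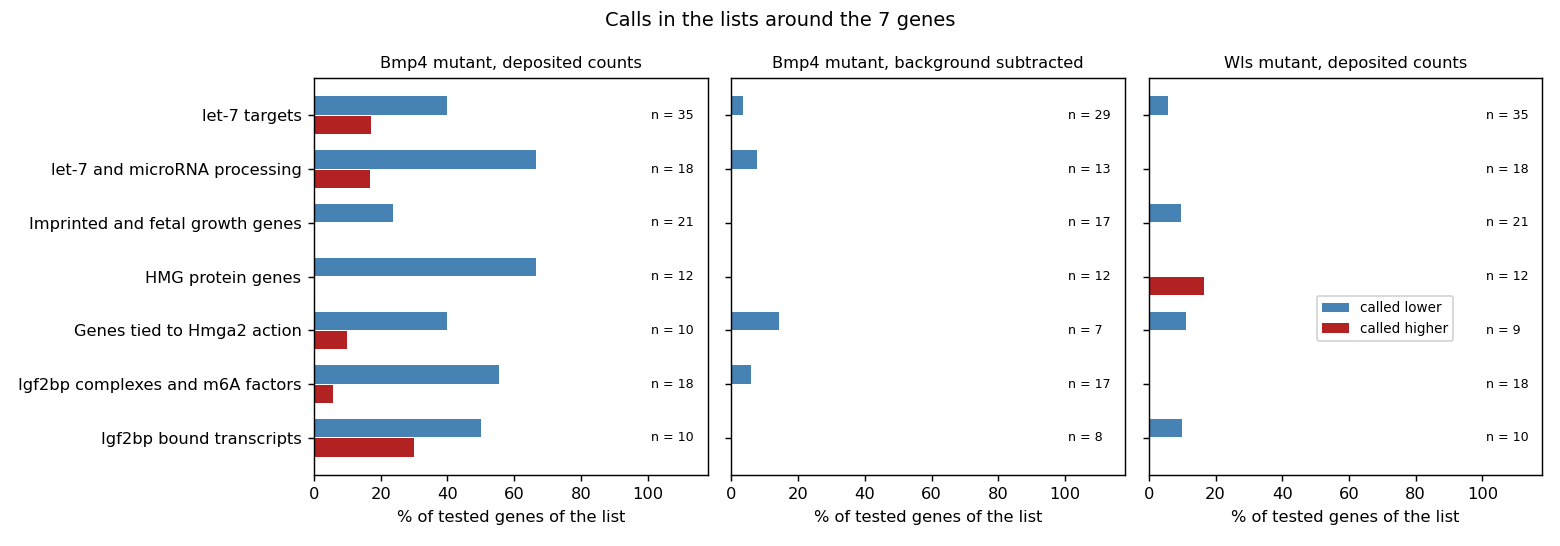
Share of tested genes called lower (blue) or higher (red) in each list, in percent, for the Bmp4 comparison with deposited and with background-subtracted counts and for the Wls comparison; n is the number of genes tested. Each of the 7 lists drawn has more genes called lower than higher in the sorted cells as deposited and at most 1 gene called after subtraction. Among genes well above the background, 33.3% were called lower in the sorted cells as deposited.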

How the data were processed

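RNA sequencing gave 1 table of counts for the sorted cells (5 libraries) and 1 for the whole tracheas (3 libraries). The authors deposited whole-number counts per gene symbol, with no normalization, and they were used as deposited. Tools listed in the submitters' processing notes are Trim Galore (sorted cells), Bowtie2, Cufflinks and DESeq, with the build mm10. Which program counted reads, on which strand and annotation, is not stated there, so reads of overlapping antisense genes cannot be told apart. Trizol RNA was, per the labels' protocols, made into Nextera XT libraries after SMART-Seq v4 (sorted cells) or Ovation v2 (tracheas), so no test crossed the tables.

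Each table was fitted with edgeR 4.0.16 in R 4.3.3 (TMM scaling, filter by group, quasi-likelihood F test, Benjamini-Hochberg adjusted p under 0.05 over all 21665 and 15815 genes tested). Residual degrees of freedom were 3 and 1, and in the trachea fit the lone Wls mutant was assumed to vary like its controls. TMM factors enter the CPM of single genes but not list sums. In the background-subtracted fit, the mean rate per kilobase (silent genes for mutants, receptor genes for controls) times exon length was removed, and 9836 genes with a mean of at least 4 times the background were tested. Exon lengths came from GENCODE M21 and matched 98.4% of symbols. Similar profiles were the 3 genes with the smallest root mean square difference of centred log2 CPM (prior count 2; mean log2 CPM at least 3). In simulated counts the fit recovered 13 and 66 of 100 genes changed 2-fold and 4-fold in the sorted-cell design, and 88 and 100 of 100 in the trachea design. False calls numbered 6 and 11. The simulation gave mutants and controls the same spread and added no background to the mutants, so it does not measure the power of these libraries.

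Members and gene lists were chosen with earlier results of these data known. From each list, up to 6 called genes by smallest p were named, with the Lin28, uridylation, Dis3l2, Trim71, Plag1, Igf2 and H19 rows. Limits from 0 counts cover counting error only. Alternatives were DESeq2 1.42.0, no low-count filter, a replicate block, background subtraction, scaling from genes above the background, a rule of size without a test and leaving out each library. A check of sequence shared between genes is not reported here.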

Additional observations from a re-analysis of the deposited data

How the results depend on the processing

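In the Bmp4 comparison edgeR called 11888 genes and 14 let-7 targets lower. The counts were 4 and 0 with the replicate number as a block, 285 and 1 after background subtraction and, for let-7 targets, 4 with scaling from genes above the background. Leaving out 1 library gave 3595 to 10478 genes and 9 to 13 let-7 targets. No label says whether the replicate numbers pair the samples. Same-numbered libraries deviated with a correlation of -0.16, but this rests on 2 pairs and cannot decide it. Under the block edgeR called 0 members. At an unadjusted p under 0.05 there were 5, and the share of all genes at that threshold under the block is not given. After subtraction, a background rate 1.5 times as high gave 184 genes, and leaving out 1 library gave 0 to 190 genes and 0 let-7 targets, both chosen after seeing the data. In the Wls comparison 676 genes and 2 let-7 targets lower became 259 and 1 with DESeq2, and 0 let-7 targets passed the rule of size. The cause of these changes was not tested. Hmga2 kept its direction in both comparisons under every alternative run, from -3.89 to -2.96 on the deposited counts of the sorted cells and from -0.65 to -0.54 in the Wls mutant. Igf2bp1, Igf2bp2 and Igf2bp3 were lower in the sorted cells under every alternative run. Igf2bp3 in the Wls mutant was at 0.02 without control 2. Lin28b was called higher with DESeq2, with the other scaling and without control 3. Leaving out a Wls control leaves 1 library a group, so values only were given. With 2 mutants or 1, small differences could not be resolved.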
